A study of Caenorhabditis elegans with 2 samples.

Results

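The 214 summits described here were the LIM-7 ChIP-seq summits that recurred in both replicates and lay away from tRNA, snRNA, snoRNA, miRNA and rRNA genes. Non-coding RNA genes of other kinds were not avoided, and some sites lie at them. They were chosen by 2 criteria. A peak of the list made from both replicates had to overlap, by at least 1 bp, a peak in the list of each replicate alone, and its summit had to lie more than 500 bp from the start of every annotated gene of those 5 kinds, called short non-coding RNA genes from here on. Of the 1804 peaks in the list, 600 overlapped both replicate lists, 386 of these had a short non-coding RNA gene within 500 bp, and 214 remained. The other 1044 summits away from such genes, which lacked a peak in at least 1 replicate list, served as the comparison set. Recurrence and distance were thus used to pick the sites and are not results.

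The data were chromatin immunoprecipitation and sequencing (ChIP-seq) peak lists from whole Caenorhabditis elegans L4 larvae, 48.5 hours old, grown from L1 larvae starved after bleaching. Both libraries came from strain OP779, in which the integrated array wgIs779 carries lim-7 fused to TY1, EGFP and 3xFLAG together with unc-119(+), in the unc-119 (tm4063) mutant background. The fusion protein was precipitated with an antibody to GFP, and the libraries were 2 biological replicates of this 1 genotype and stage. No second condition exists, the strain is 1 integrated line that adds a tagged copy of the gene, and the tissue is the whole animal, so that binding in different cell types cannot be told apart. Replicate 1 gave 883 peaks and replicate 2 gave 920. Read depth is unknown from peak lists. The control experiment named in the labels was not analysed here.

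LIM-7 is a LIM-homeodomain transcription factor related to vertebrate Islet proteins and known for its expression in the gonadal sheath. Homeodomains bind short AT-rich DNA with a TAAT core. RNA polymerase III, which transcribes tRNAs and a few other small RNAs, is recruited to tRNA genes through TFIIIC, a complex that recognises the A box and the B box inside the gene. Many repeats of animal genomes descend from such genes and still carry these boxes.

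Some of the sites, 69 in all, fell into sets that shared sequence, while 108 had a window with a single copy in the genome. Windows from some of the strongest sites show what the summits looked like. All sequences are from the RefSeq copy of WBcel235 (ce11), with the strand given. Capitals in the first 4 lines mark the 9 bases CGAGTGGTT, here called the nine-mer, which most serine tRNA genes hold, and, where present, a B box form (GTTCAANNC, GTTCGANNC, GATCAANNC or GATCGANNC). These belong to repeat family 1.
family 1, near nhr-277 (chrIV:2740195-2740334, + strand): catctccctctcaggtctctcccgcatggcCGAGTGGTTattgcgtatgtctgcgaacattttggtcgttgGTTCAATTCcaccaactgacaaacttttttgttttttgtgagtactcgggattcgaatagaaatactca
family 1, near pdfr-1 (chrIII:6661748-6661887, - strand): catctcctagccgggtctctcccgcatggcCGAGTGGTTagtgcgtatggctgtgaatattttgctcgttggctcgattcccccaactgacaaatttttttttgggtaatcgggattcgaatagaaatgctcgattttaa
family 1, near F48F7.5 (chrX:13973275-13973414, + strand): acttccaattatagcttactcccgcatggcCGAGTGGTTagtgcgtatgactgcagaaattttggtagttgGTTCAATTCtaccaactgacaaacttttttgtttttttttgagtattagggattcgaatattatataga
family 1, near srt-52 (chrV:53457-53596, + strand): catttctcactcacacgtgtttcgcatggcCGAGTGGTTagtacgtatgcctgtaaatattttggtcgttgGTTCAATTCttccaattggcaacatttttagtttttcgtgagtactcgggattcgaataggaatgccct

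Family 4 had an A box form (GNNNAGTGG in capitals), again followed by a B box form. In 200 bp around the summit, 20 of the 23 family 1 sites also held this A box form.
family 4, upstream of vps-37 (chrV:5592058-5592197, + strand): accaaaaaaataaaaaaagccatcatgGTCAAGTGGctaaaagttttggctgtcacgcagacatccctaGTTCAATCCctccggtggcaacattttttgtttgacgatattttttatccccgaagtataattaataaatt
family 4, near F09E5.7 (chrII:5353764-5353903, - strand): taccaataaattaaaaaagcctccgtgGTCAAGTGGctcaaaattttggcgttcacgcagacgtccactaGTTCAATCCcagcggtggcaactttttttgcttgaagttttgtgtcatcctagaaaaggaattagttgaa
family 4, near C14C11.7 (chrV:5667415-5667554, - strand): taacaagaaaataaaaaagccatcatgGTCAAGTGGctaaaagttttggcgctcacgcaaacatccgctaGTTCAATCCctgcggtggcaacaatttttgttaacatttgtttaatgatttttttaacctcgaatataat

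Family 2 was a tandem repeat of heat shock elements, the binding site of the heat shock factor HSF-1. Capitals mark runs of 3 alternating GAA and TTC units with any 2 bases between them, read from the left. Runs that overlap a marked one are not marked, so some stretches of units go on in lower case. The promoter shared by the hsp70 genes F44E5.4 and F44E5.5 had the element in a window with a single copy in the genome and is printed with them.
family 2, near Y102A11A.1 (chrX:2057950-2058049, + strand): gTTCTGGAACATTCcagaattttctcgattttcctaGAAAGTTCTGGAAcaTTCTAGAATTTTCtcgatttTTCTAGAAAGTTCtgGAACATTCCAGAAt
family 2, near fezf-1 (chrIV:13464054-13464153, + strand): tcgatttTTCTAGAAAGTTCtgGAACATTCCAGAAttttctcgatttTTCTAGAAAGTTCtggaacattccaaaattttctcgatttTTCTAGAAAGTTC
F44E5.4 and F44E5.5 promoter (chrII:11759378-11759477, + strand): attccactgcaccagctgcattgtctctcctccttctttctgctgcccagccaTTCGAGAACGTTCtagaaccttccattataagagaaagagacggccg

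Further windows, in which no heat shock element was found, are those of a family 3 repeat, the start of the RNase MRP RNA gene mrpr-1, and a pair of ribosomal protein promoters that share the word AAGTGTGCG (the only capitals here, although the family 3 window also holds a B box form).
family 3, near F57A10.2 (chrV:15767544-15767643, + strand): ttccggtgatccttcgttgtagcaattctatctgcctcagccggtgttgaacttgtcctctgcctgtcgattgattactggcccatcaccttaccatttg
mrpr-1 (chrII:7200203-7200302, + strand): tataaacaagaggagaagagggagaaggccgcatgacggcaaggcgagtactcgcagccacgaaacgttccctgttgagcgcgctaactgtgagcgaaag
rpl-3 promoter (chrIII:3867513-3867612, + strand): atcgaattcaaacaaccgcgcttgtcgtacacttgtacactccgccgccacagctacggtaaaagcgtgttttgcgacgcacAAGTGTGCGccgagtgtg
rpl-35 promoter (chrIII:7854631-7854730, + strand): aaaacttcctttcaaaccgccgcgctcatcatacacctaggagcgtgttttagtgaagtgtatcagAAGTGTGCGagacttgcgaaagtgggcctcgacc

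The authors' signal value of a peak, which has no stated scale, ranged from 3.94 to 590 over the 214 sites in the list of both replicates, with a median of 174. In replicate 1 alone the sites ran from 39.3 to 260.04 with a median of 84.1, and in replicate 2 from 30.4 to 332 with a median of 87.3. The sites kept much the same order in the replicates: across sites Pearson's r was 0.83 and Spearman's rho 0.77 (n = 214 sites of the same 2 libraries), and r was 0.80 without the 2 sites farthest from the median. The rule kept only sites with a peak in each replicate list, so this agreement, like that of the ratios that follow, was partly built in. The log2 ratio of replicate 1 to replicate 2 signal had a median of -0.02 and quartiles of -0.24 and 0.20. Only the promoter of ego-1, an RNA-dependent RNA polymerase of the germ line, differed more than 2-fold, with 126 in replicate 1 and 52.1 in replicate 2. At the other end, an intronic site near ccm-2 had 165 in replicate 1 and 322 in replicate 2. The summits themselves were placed a median of 9 bp from the replicate 1 summit and 10 bp from the replicate 2 summit.

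**Figure D1:**
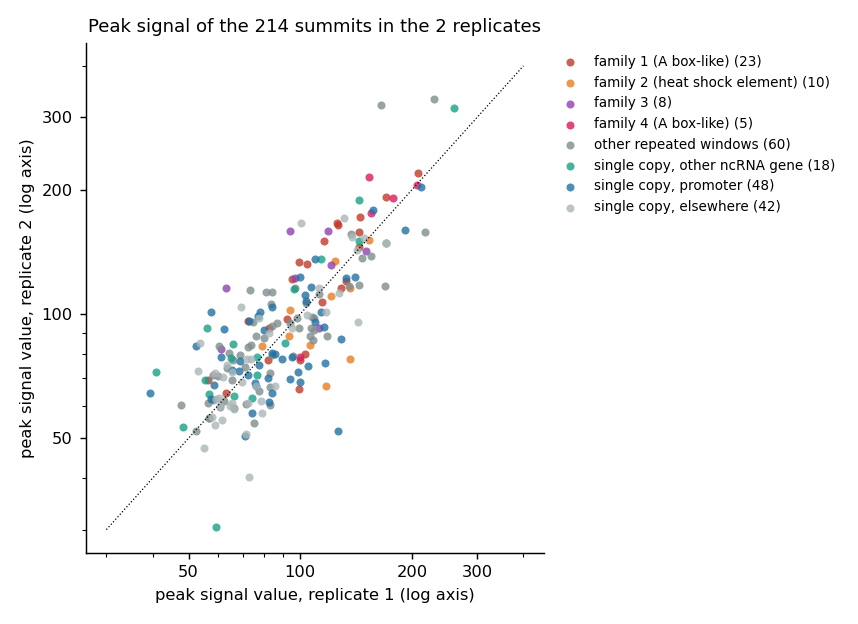
Peak signal value of each of the 214 sites in replicate 1 (x axis) and replicate 2 (y axis), both on log axes, with 1 point per site coloured by sequence class and a dotted line at equal values. The classes overlap, 4 of the 5 family 4 points lie above 150 in both replicates, and the ego-1 promoter is the point farthest below the line at 126 and 52.1.

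These sites were the strong end of the summits away from short non-coding RNA genes. Of the 214, 208 (97.2%) lay in the upper 50% of the whole list by signal and 20 were among its strongest 100, and the median signal was 174, against 90.3 for the other 1044 summits. In the lists of single replicates they lay around the middle: 106 were in the upper 50% of the replicate 1 list and 109 in that of replicate 2. The 386 recurrent summits near short non-coding RNA genes were stronger than them, with a median of 219.7. Because requiring a peak in each replicate list favours strong peaks, these differences are part of how the sites were chosen. The nearest ones kept lay 503 bp from the snoRNA gene C06A1.9 (the cdc-48.1 promoter, signal 205), 550 bp from the snoRNA gene K11H12.13 (the rpl-15 promoter, 255) and 576 bp from a tRNA gene (165), and the farthest ones left out lay 288, 213 and 150 bp away with signals of 287, 23.4 and 137.

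Repeated sequence was common at the sites. The 100 bp around the summit had at least 1 further copy in the genome (75% identity or more over 70 bp or more) at 106 of 214 sites (49.5%, exact 95% interval 42.6 to 56.4), against 281 of 1044 other summits (26.9%, 24.2 to 29.7). Among summits of the upper 50% of the list the shares were 49.5% of 208 sites and 33.3% of 228 other summits. Windows with 10 or more copies made up 36.4% of the sites and 15.6% of the other summits. At 76 sites the window was also alike to that of another summit in the list, against 95 of the 1044 other summits (35.5% and 9.10%). In all, 69 of the sites fell into 15 families that each held 2 or more of them. How the authors assigned reads with several matches is not given in the sources used here. Over 200 bp around the summit, 119 sites (55.6%) consisted entirely of 50-base words that occur once in the genome, and at 31 sites (14.5%) fewer than 50% of the words did.

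Repeat family 1 was the largest, with 23 of the 214 sites on all 6 chromosomes and 7 further summits that lacked a peak in a replicate list. Its windows were 75.3 to 97.9% identical to one another (median 86.7% over 196 aligned pairs) and each had 23 to 71 copies in the genome. Signals ran from 120.2 to 417 in the list of both replicates, from 56.6 to 208 in replicate 1 and from 64.3 to 219.6 in replicate 2. The strongest, 2766 bp upstream of nhr-277, a nuclear hormone receptor gene, had 417 in the joint list, with 208 in replicate 1 and 219.6 in replicate 2. RefSeq annotates a tRNA pseudogene 14 bp from this summit, as it did within 500 bp of 4 of the 214 sites and 5 of the 1044 other summits. The remaining sites of these 4 were outside family 1. They lay 7 bp from a pseudogene (nearest start unc-104, 365), 11 bp (a Y69A2AR.31 promoter site, 193) and 5 bp (near C32D5.12, 179.7, a site of family 4). Only 2 of the 23 sites lay in promoters, those of srbc-38, a chemoreceptor gene (235), and bath-46 (168).

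The nine-mer CGAGTGGTT was a regular feature of family 1. It was present in 21 of its 23 windows and in 22 of all 214 (the other being that of the tasp-1 promoter; 10.3%, 6.56 to 15.2), against 0 of 214 flanks taken 200 to 300 bp away (which allows up to 1.71%), 8 of 1044 other summits (0.766%) and 0.0457% of all 100 bp tiles of the genome. The match lay a median of 7 bp from the summit in the joint list, 7.5 bp in replicate 1 and 7 bp in replicate 2, and at 22 of 22 sites within 50 bp in each. On the same strand, 17 of the 22 had a B box form downstream, 41 bases from the start of the nine-mer at 14 sites and 40 bases at 3. These points were farther apart in the annotated tRNA genes that hold the nine-mer. Those 41 RefSeq genes were 37 serine, 3 leucine and 1 lysine tRNA genes, and the spacing in other tRNA genes was not measured. Of the 41, 36 had 50 bases between these points, 3 had 52 and 1 had 54. Most copies of the nine-mer had no summit. It occurred 508 times on the 6 chromosomes, 456 times outside annotated tRNA genes, and 38 of these (8.33%) had a summit of the list within 50 bp, 22 of them sites described here.

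Family 4 had 5 sites, and all 5 windows of this kind in the list recurred in both replicates. They were AT-rich, with a median G + C content of 37%, had 2 to 6 copies each and consisted of uniquely matching 50-base words (median 100%). Their signals were 411 upstream of vps-37, an ESCRT-I subunit gene, 368 near F09E5.7, 361 near C14C11.7, 329 near eif-3.G and 179.7 near C32D5.12. In replicate 1 the same sites had 207, 153, 178, 155 and 99.7, and in replicate 2 they had 206, 215, 191, 176 and 78.6. Of these sites 4 were therefore above 150 in each replicate, where the medians of all sites were 84.1 and 87.3.

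The pairing of an A box form with a B box form reached beyond these families. A search in 200 bp around the summit, on both strands, for GNNNAGTGG followed 30 to 70 bases later by a B box form found 37 of 214 sites (17.3%, 12.5 to 23.0). The same pair was in 1 of 214 flanks (0.467%), in 20 of 1044 other summits (1.92%, 1.17 to 2.94) and in 0.174% of the 200 bp tiles of the genome. Of the 386 recurrent summits near short non-coding RNA genes 167 had it (43.3%). Within the upper 50% of the list the shares were 17.8% of 208 sites and 5.26% of 228 other summits. Family 1 contributed 16 of the 37 sites and family 4 contributed 5. Among windows with a single copy in the genome the pair was in 7 of 108 sites (6.48%, 2.65 to 12.9), against 6 of 763 other summits (0.786%, 0.289 to 1.70). The single-copy examples included the start of the unclassified non-coding RNA gene T28D6.15 (296), a site near ckr-2 (242) and the promoters of Y69A2AR.31 (220.5) and F02E8.4 (219). The pattern was written after these windows had been read, so it is a description and was not tested.

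B box forms alone were less specific. They were in the 100 bp window of 33 sites (15.4%, 10.9 to 20.97), in 20 flanks (9.35%), in 75 of the other summits (7.18%) and in 3.88% of genome tiles. Where a form lay within 150 bp, its median distance from the replicate 1 summit was 47 bp and from the replicate 2 summit 46 bp, farther than for the nine-mer. The shorter core GTTCGA, one of the listed motifs, was in 19 windows (8.88%), against 6.23% of the other summits (Fisher's exact test, adjusted p = 0.466) and 7.01% of the sites' own flanks (exact McNemar test, adjusted p = 0.688). Of the 5 strongest of the 19, the first lay in an intron with unc-104 as the nearest start (365), 7 bp from a RefSeq tRNA pseudogene. The others lay 67 bp upstream of K10H10.11 (336), near C30E1.4 (309), in an intron near Y69A2AR.31 (296) and in the sms-3 promoter (288). The last is a sphingomyelin synthase gene.

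**Figure D2:**
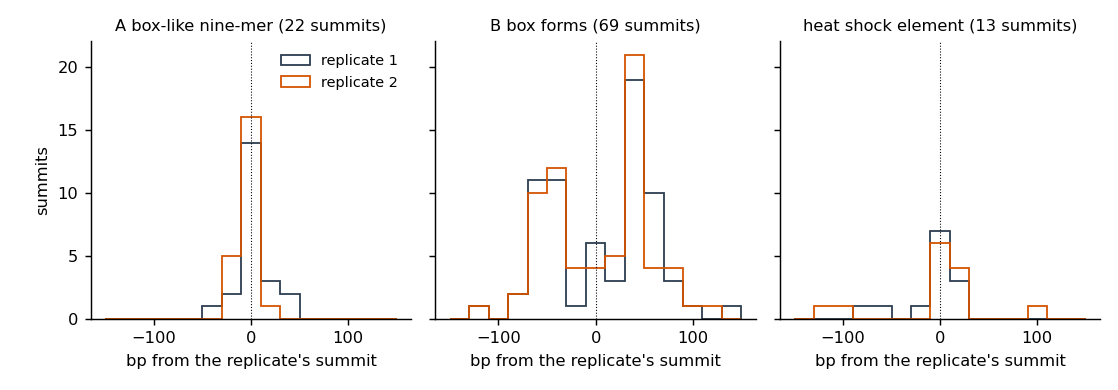
Number of sites (y axis) by distance in bp of the nearest match from the summit of each replicate (x axis, 20 bp bins), for the A box-like nine-mer (22 sites), the B box forms (69 sites) and the heat shock element (13 sites). Nine-mer matches lie close to the summit in both replicates, heat shock element matches come mostly from tandem repeats in which some match is near any point, and B box forms lie to either side with medians of 47 and 46 bp.

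Family 2, the heat shock element repeat, had 10 sites and 6 further summits, with windows 90.5 to 98.97% identical. Signals in the joint list ran from 161 to 281, in replicate 1 from 79.1 to 153 and in replicate 2 from 66.9 to 151. The strongest lay 31 bp downstream of the start of pck-2, a phosphoenolpyruvate carboxykinase gene, with 281 in the joint list, 153 in replicate 1 and 151 in replicate 2. These windows had 1579 to 2136 copies in the genome, and a median of 17.5% of their 50-base words were unique, the lowest of families 1 to 4. The element itself was in 11 of 214 windows (5.14%, 2.59 to 9.01) and equally in 11 of their flanks, so that its nearness to the summits shows no centring, against 12 of 1044 other summits (1.15%) and 0.771% of genome tiles. All 10 family 2 windows had it. The eleventh was the promoter between F44E5.4 and F44E5.5, stress-inducible hsp70 genes, where the window has a single copy in the genome. This site had 263 in the joint list, 140.2 in replicate 1 and 123 in replicate 2, and it was the strongest of 3 sites that spanned 5138 bp. Family 3 had 8 sites with 17 to 19 genome copies each and signals of 152 to 303, among them sites near F57A10.2 (303), T24H10.5 (283), ftn-1, a ferritin gene (256), and at the non-coding RNA gene K02E11.15 (251).

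**Figure D3:**
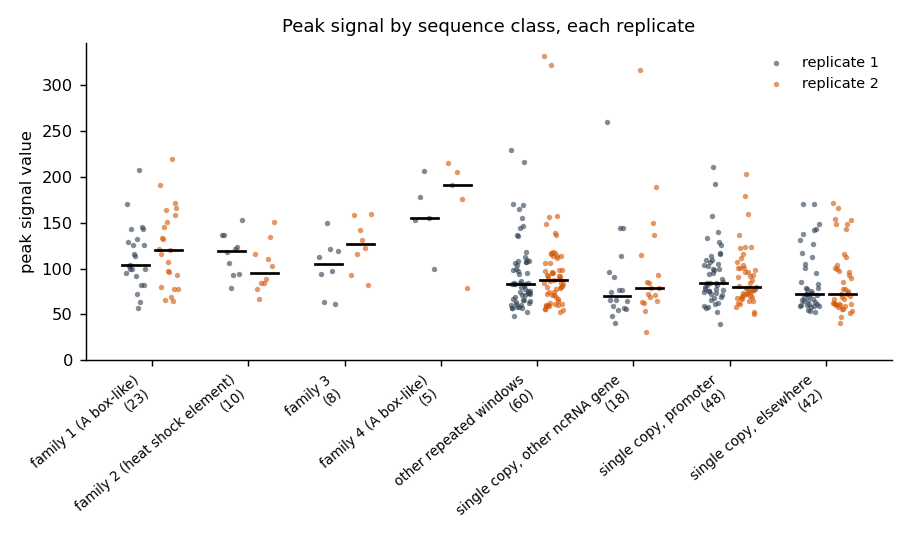
Peak signal value (y axis) of every site in replicate 1 and replicate 2 by sequence class (x axis), with 1 point per site and a bar at each median; the number of sites stands in brackets. Family 4 has the highest medians, 155 in replicate 1 and 191 in replicate 2, and the ranges of all classes overlap.

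Genes for other small structural RNAs, which the distance rule did not avoid, lay at a few of the sites, among them the strongest. RNA polymerase III transcribes the RNA of RNase P, which trims tRNA precursors, the RNA of the related RNase MRP, and the RNA of the signal recognition particle. The strongest of all 214 sites was at the RNase P RNA gene rpr-1 (WBGene00045238, chromosome I, 13463955 to 13464207), 16 bp downstream of its start. It had 590 in the joint list, 260.04 in replicate 1 and 317 in replicate 2, which placed it at rank 4 of the whole list. At mrpr-1, the RNase MRP RNA gene (WBGene00045095, chromosome II, 7200233 to 7200418), the summit lay 20 bp downstream of the start, with 251, 114 in replicate 1 and 136 in replicate 2. Of the 5 signal recognition particle RNA genes, srpr-2.2 had a site 44 bp from its start (179.8) and srpr-1.2 one 30 bp from its start (154). At srpr-1.1 (132) and srpr-2.1 (114) a summit lay 10 and 6 bp from the start but had a peak in 1 replicate list only, and the nearest summit to srpr-3 lay 24594 bp away. The windows at srpr-1.2 and srpr-2.2 each had 5 copies in the genome, so their signals cannot be fully separated.

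Counting all annotated non-coding RNA genes of other kinds (piRNAs left out), 36 of 214 sites (16.8%, 12.1 to 22.5) lay within 500 bp of a start and 23 within 100 bp, against 123 of 1044 other summits (11.8%, 9.89 to 13.9). Within the upper 50% of the list the shares were 16.3% of the sites and 9.21% of the other summits. The strongest unclassified ones were K10H10.11 (336; 144 in replicate 1 and 189 in replicate 2), T28D6.15 (296; 144 and 150.01) and F44E5.16 (253; 143 and 95.9). C14F11.14 (204) and ZK816.9 (191) had the summit 19 and 30 bp inside the gene. These annotations name no function.

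Away from coding sequence was where most sites lay. Of the 214, 133 were intergenic (62.1%), 48 intronic (22.4%), 20 in coding sequence (9.35%, 5.80 to 14.1), 7 in 3' UTRs and 6 in 5' UTRs. Of the other 1044 summits 279 were in coding sequence (26.7%, 24.1 to 29.5), a difference with an odds ratio of 0.283 (Fisher's exact test, two-sided, adjusted p = 1.14e-07 over the 18 shares compared, of which 4 passed the threshold). This difference went with signal: in the upper 50% of the list 9.13% of 208 sites and 10.96% of 228 other summits were in coding sequence (odds ratio 0.816, Fisher's exact test, adjusted p = 1.00). Between windows with a single copy it was 13.0% of 108 sites against 29.8% of 763 other summits (odds ratio 0.352, Fisher's exact test, adjusted p = 0.00246). Chromosome X held 31 sites (14.5%) and 151 of the other summits (14.5%), with an odds ratio of 1.00 (Fisher's exact test, adjusted p = 1.00), and makes up 17.7% of the 6 chromosomes. Of the 4 shares past the threshold, those of the motifs ACCACT and CGGCCA were compared because of earlier results on these data. Since a summit is no replicate of the experiment, such p-values speak of these lists alone and say nothing of the spread between animals.

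**Figure D4:**
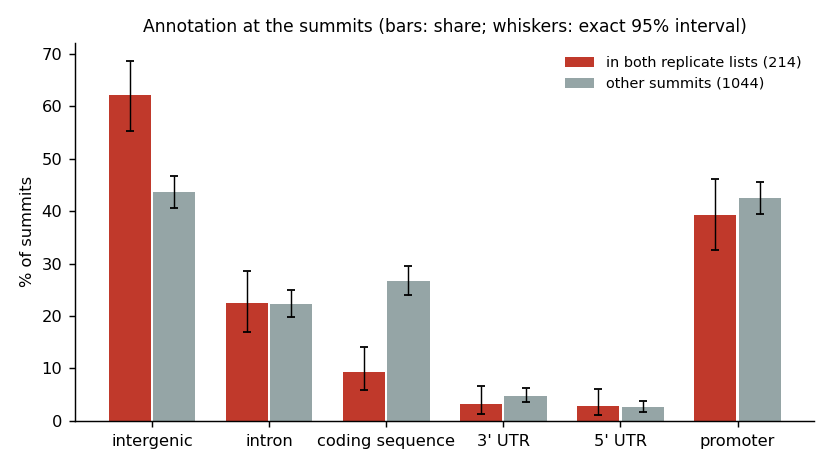
Share of summits (y axis, %) by annotation for the 214 sites (red) and the other 1044 summits away from short non-coding RNA genes (grey), with exact 95% intervals; the promoter group overlaps the other groups. The sites are more often intergenic (62.1% against 43.6%) and less often in coding sequence (9.35% against 26.7%).

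Promoters, taken as 1000 bp upstream to 200 bp downstream of a protein-coding transcript start, held 84 sites (39.3%, 32.7 to 46.1) and 444 of the other summits (42.5%, 39.5 to 45.6; odds ratio 0.873, Fisher's exact test, adjusted p = 0.660). In the upper 50% of the list the shares were 39.4% of the sites and 53.5% of the other summits (odds ratio 0.565, Fisher's exact test, adjusted p = 0.0270). The split by repeats was wider: 58 of 108 single-copy sites lay in a promoter (53.7%, 43.8 to 63.4), against 26 of the 106 with another copy (24.5%, 16.7 to 33.8). The other summits split in the same direction, with 360 of 763 (47.2%, 43.6 to 50.8) and 84 of 281 (29.9%, 24.6 to 35.6), so this split is not particular to the sites. The 48 single-copy promoter sites with no non-coding RNA start within 100 bp had a median signal of 169 in the joint list, 84.0 in replicate 1 and 79.4 in replicate 2. At 23 of the 84 sites the genes reached lay on both strands. Of the 110 pairs of a gene and a site, 99 had the summit upstream, the median position was 311 bp upstream and 35 pairs were within 200 bp of the start.

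In all 107 of 19973 protein-coding genes (0.536%) had a site in the promoter. Cytosolic ribosomal protein genes had 5 of 81 (6.17%, 2.03 to 13.8): rpl-3 with 404 in the joint list (211 in replicate 1 and 204 in replicate 2), rpl-15 with 255 (133 and 122), rpl-35 with 223 (99.98 and 123), rpl-20 with 196 (103 and 111) and rps-24 with 194 (97.0 and 115). The summits of these 5 lay 291 to 453 bp upstream of the start. Of the same 81 genes 24 had one of the other summits in the promoter. Histone genes had 5 of 72, at his-59 and his-60 (219), his-67 and his-68 (165) and his-61 (131). The summits behind them all lay in coding sequence of histone genes. They were 177 bp downstream of the his-60 start and 182 bp downstream of that of his-67. From the starts of his-59, his-61 and his-68 they were 434, 534 and 551 bp upstream. The windows at these histone summits each had 17 copies in the genome by the similarity rule. Of their 50-base words, 100% were unique at the his-59 and his-67 sites and 96.0% at the his-61 site. The rps-24 window had 2 copies and 68.2% unique words. How reads were assigned between such copies could not be checked. Of 60 chaperone genes listed by symbol, which leaves out F44E5.4 and F44E5.5, 3 had a site. They were hsp-110 (212, shared with the proteasome subunit gene rpn-3, the only 1 of 33 proteasome genes), hsp-1, the constitutive hsp70 gene (165), and dnj-13 (135). The hsp-1 summit lay in coding sequence, 134 bp downstream of the start. Among aminoacyl-tRNA synthetase genes ears-2 was the only 1 of 31 (188), and among 1251 chemoreceptor genes srbc-38 (235) and sre-1 (151) were the only ones.

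Other lists had no site, and with a share of 0.536% over all protein-coding genes a count of 0 in lists of these sizes is no result about them. None of 8 LIM-homeobox and LIM-binding genes and none of 11 gonadal sheath and spermatheca genes had one, nor did any of the other 1044 summits lie in a promoter of these lists. At these list sizes a count of 0 still allows shares up to 36.9% and 28.5%. The 63 ceh homeobox genes (up to 5.69%), 274 nuclear hormone receptor genes (up to 1.34%), 178 collagen genes (up to 2.05%), 140 neuropeptide genes (up to 2.60%), 26 Wnt signalling genes (up to 13.2%) and 9 heterochronic genes (up to 33.6%) also had none. Nor did 70 mitochondrial ribosomal protein genes, 37 translation factor genes, 41 splicing factor genes, 22 RNA polymerase subunit genes and 20 vacuolar ATPase genes.

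Among single promoters outside the lists, the strongest were that of vps-37 (411, in family 4) and that shared by tasp-1, a threonine aspartase gene, and K01G5.10 (356; 192 in replicate 1 and 159.9 in replicate 2). The summit there lay 59 bp upstream of tasp-1. K12H4.5 followed with 337 (157 and 179), then tpra-1 (297), sms-3 (288), pck-2 (281), F44E5.4 with F44E5.5 (263) and eel-1, a HECT ubiquitin ligase gene (257). The word AAGTGTGCG printed above for rpl-3 and rpl-35 was in 4 sites, all of them in single-copy promoters, the other two being those of tasp-1 and of npp-6 and spd-5 (179). It was in 0 of 214 flanks, in 4 of 1044 other summits (0.383%) and in 0.0558% of genome tiles, and it was picked after the sequences were seen.

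Further strong sites had neither a promoter nor a non-coding RNA gene. One on chromosome I near Y106G6H.9 (498; 229 in replicate 1 and 332 in replicate 2) lay in a repeat with 353 copies, and one in an intron near ccm-2 (472; 165 and 322) in a repeat with 25. A site near zip-2 in coding sequence (314; 149 and 153), one in an intron near mdt-26 (313; 131 and 171) and one in an intron near zip-7, which like zip-2 encodes a bZIP factor (300.4; 138 and 154), had single-copy windows. The 10 sites with the highest mean rank in both replicate lists were all among the 20 strongest of the joint list, led by rpr-1 at the 99.5th percentile of each. Sites also came in groups: 8 stretches held 3 or 4 of them with gaps of at most 10000 bp, among them 4 sites within 1845 bp on chromosome X near C30E1.4. There 3 of the 4 were summits of 1 peak of 1286 bp and took the same replicate peaks (170.5 in replicate 1 and 148.8 in replicate 2), and 211 distinct replicate peaks stood behind the 214 sites in each replicate. The weakest site, on X near C36E6.2 with 3.94 in the joint list, shared its replicate peaks (56.8 and 56.1) with a neighbour of 109, all within family 5, a repeat with 134 or 135 copies.

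The letters at the summits were compared with the sites' own flanks, 200 to 300 bp to lower coordinates. The summit windows had a median G + C content of 49%, against 35% in the flanks, and the other 1044 summits also had 49%. TAAT, the homeodomain core, was in 58 of 214 summit windows (27.1%) and 126 flanks (58.9%; exact McNemar test, adjusted p = 4.48e-10 over 15 motifs). Longer forms did not go the other way: by the same exact test, TAATTA was found at 1.40% of summits against 3.74% in flanks (adjusted p = 0.309) and TAATG at 7.01% against 16.8% (adjusted p = 0.00266). Between the sites and the other summits TAAT was in 27.1% and 32.3% of windows (Fisher's exact test, adjusted p = 0.466). The difference in base composition moves with that in TAAT, and its part in it was not tested.

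Of the 15 listed motifs 4 were more frequent at the summits than in the flanks and 4 less frequent. By the exact McNemar test the more frequent ones were CGGCCA (16.8% against 0%, adjusted p = 4.37e-10), ACCACT (18.2% against 3.74%, adjusted p = 8.18e-06), GAGAGA (15.9% against 4.67%, adjusted p = 0.000546) and CGCGCG (5.14% against 0.467%, adjusted p = 0.0136). CGGCCA and ACCACT read on the other strand as TGGCCG and AGTGGT, which are parts of the family 1 sequence, and these 2 motifs, like GTTCGA, came onto the motif list from earlier results on these data. They were in 95.7% and 91.3% of family 1 windows. With single-copy windows alone and the same exact test, CGGCCA was in 5.56% of 108 summits and 0% of flanks (adjusted p = 0.0938) and ACCACT in 8.33% and 2.78% (adjusted p = 0.243), and TAAT (25% against 63.0%, adjusted p = 4.08e-07) and TAATG (8.33% against 23.1%, adjusted p = 0.0187) were the only 2 of the 15 past the threshold. Against the other summits, by Fisher's exact test, ACCACT (6.61% of 1044, odds ratio 3.15, adjusted p = 5.51e-06), CGGCCA (6.61%, odds ratio 2.86, adjusted p = 4.89e-05) and TTTCAG (3.27% against 10.1%, odds ratio 0.302, adjusted p = 0.00384) differed. In the upper 50% of the list the CGGCCA difference was lost (17.3% of 208 sites against 11.8% of 228 other summits, odds ratio 1.56, Fisher's exact test, adjusted p = 0.599). In single-copy windows it was lost as well (odds ratio 1.06, Fisher's exact test, adjusted p = 1.00), as was that of ACCACT (odds ratio 1.56, Fisher's exact test, adjusted p = 0.607). The TTTCAG difference was lost when only 1 replicate list was required. Without replicate 1 the shares were 8.66% and 9.02% (odds ratio 0.957, Fisher's exact test, adjusted p = 1.00). Without replicate 2 they were 6.13% and 10.01% (odds ratio 0.587, Fisher's exact test, adjusted p = 0.128). With both required, it also missed the threshold in single-copy windows (odds ratio 0.333, Fisher's exact test, adjusted p = 0.136). The same held for windows of 50 bp (odds ratio 0.266, Fisher's exact test, adjusted p = 0.0743). TTTCAG is the end of many worm introns.

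Over all 2080 6-mers, 82 were more frequent at the summits than in the flanks (3.94%) and 78 less frequent (3.75%) at an adjusted p under 0.05. By the exact McNemar test the more frequent words were led by pieces of family 1, such as ATGGCC and CGGCCA (each in 36 windows and 0 flanks, adjusted p = 2.02e-08), and the less frequent ones by A-rich words, such as TAAAAA (13 windows and 62 flanks, adjusted p = 2.02e-08). Some leading words were not in family 1 at all. GCACGC (27 windows and 1 flank), ACGCAG (19 and 0) and GGCGCA (19 and 0) were in 0% of family 1 windows and in 11.1 to 13.0% of single-copy windows. The other summits held them in 5.27%, 6.99% and 5.46% of windows. With single-copy windows alone, only 2 6-mers were more frequent at the summits than in the flanks.

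**Figure D5:**
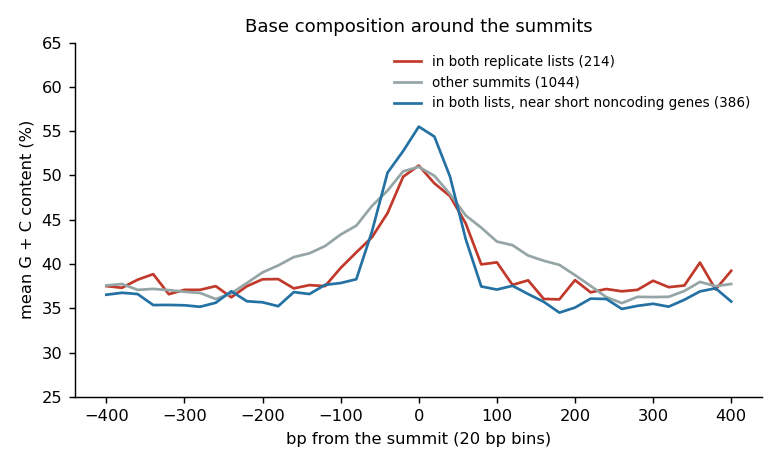
Mean G + C content (y axis, %) in 20 bp bins by distance from the summit (x axis, bp) for the 214 sites, the other 1044 summits away from short non-coding RNA genes and the 386 recurrent summits near such genes. All 3 curves peak at the summit, at 51.1% for the sites and 50.98% for the other summits, and the curve of the sites is at 39.6% 100 bp to lower coordinates, where that of the other summits is at 43.3%.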

How the data were processed

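Peak lists of LIM-7 ChIP-seq from 2 biological replicates were used as deposited, in ce11 coordinates per the labels. The authors gave each peak a signal value with no stated scale, a q-value on a −log10 scale, an irreproducible discovery rate score in the ranked lists, and other columns (positions, summit offsets). The aligner, peak caller and treatment of reads with several matches are not stated in any label or file header read. Lists thresholded on the irreproducible discovery rate were used. A total of 16 further columns of the ranked lists were not used.

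The members, gene lists and motifs were chosen with earlier results of these data known. Genes came from Ensembl release 115 (WBcel235). The named genes are those of the 20 strongest sites, up to 5 genes per list, the sites nearest the 500 bp limit, the 5 strongest at other non-coding genes or with GTTCGA, and the 10 with the highest mean percentile in both replicate lists. Further ones were named after their values were seen, as were the families and the box search. Windows were 100 bp. Similarity was found with blastn 2.17.0 (identity 75% or more over 70 bp or more, e-value 1e-05) and single linkage. Shares were compared by Fisher's exact test (18 shares) and windows with flanks by an exact McNemar test, two-sided, with Benjamini-Hochberg adjustment within each family and a threshold of 0.05 (scipy 1.17.1, statsmodels 0.14.6). The tests were first tested on simulated windows. Intervals are exact 95% binomial intervals and cover counting error only. Alternatives covered overlap, distance, list, strength, replicates, promoter, flank, window and, added after seeing the data, single-copy windows.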

Additional observations from a re-analysis of the deposited data

How the results depend on the processing

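A total of 22 results were recomputed under 14 alternatives, giving 249 values, of which 201 were counted as unchanged and 0 as reversed. Counts and shares were counted as unchanged within a range around the main value. Odds ratios that missed the threshold both times were counted as unchanged even where their direction changed. The promoter odds ratio, 0.873 in the main setting, was 1.15 without replicate 1 and 1.11 without replicate 2. It was 1.08 with a shorter promoter and 1.30 in single-copy windows, and stayed below 1 in the other alternatives. Requiring a peak in only 1 replicate list gave 359 to 404 sites, 278 to 358 6-mers that differed from flanks (150 to 195 more and 128 to 163 less frequent), 10.9 to 11.1% with the A box and B box pair and 41.1 to 41.5% with another genome copy. In the upper 50% of the list the coding-sequence difference was lost (odds ratio 0.816) and the promoter difference passed the threshold (0.565). Keeping only single-copy windows, an alternative chosen after seeing the data, left 108 sites, 0 motifs that differed from the other summits, 2 that differed from flanks, 12 6-mers (2 more and 10 less frequent) and 6.48% with the box pair; family 1 is absent there by construction. Windows of 50 bp gave 5 motifs and 64 6-mers (34 more and 30 less frequent). Avoiding gene bodies and all ncRNA genes gave 51 less frequent 6-mers and 56.6% with another copy. Where no reason is stated, the cause was not tested. The other alternatives, which changed the overlap rule, the distance, the list, the promoter or the side of the flank, moved none of these counts and shares past their range. Single motifs lost the threshold in 21 further cases, most often TGATAA and TTTCAG. With 2 replicates and no read counts, depth and the spread between animals could not be measured. No paired analysis was possible because the samples form 1 group.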
